A study of Mus musculus with 32 samples.

Results

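The genes described here are the mouse matrix metalloproteinases (Mmp), the ADAMTS proteinases (Adamts) and the tissue inhibitors of metalloproteinases (Timp1 to Timp4). They were chosen by symbol in the array annotation, and the rule gave 40 of the 18999 named genes with a value: 19 Mmp, 17 Adamts and 4 Timp genes. Whole-kidney RNA from C57BL/6 mice was labelled with Cy5 and hybridised to 32 two-colour arrays against a universal mouse reference RNA labelled with Cy3. The kidneys span 10 stages of normal growth, the first taken before birth on embryonic day 19 (E19) and the others after it, on postnatal days 1, 3, 5, 7, 10, 14, 21, 28 and 35 (P01 to P35). P03 and P35 have 4 arrays each and every other stage has 3. All kidneys share strain and tissue, and no genotype, transgene or treatment separates the stages. The source names call every kidney normal, although the protocol text attached to the arrays also speaks of ureteral ligation with sham controls; the source names and titles were followed. Neither the number of animals behind an array nor their sex is stated, so arrays of a stage may be technical repeats and p-values measure only the spread between arrays.

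MMPs are zinc-dependent enzymes that cut collagens, other matrix proteins and cell-surface proteins; most are made as inactive precursors that another proteinase has to open. ADAMTS enzymes are their secreted relatives with thrombospondin repeats: some trim procollagens, some cut the large proteoglycans aggrecan and versican, and others act on fibrillin-rich microfibrils or plasma proteins. TIMPs bind the active site and block it, and the balance between enzymes and inhibitors governs how matrix is laid down and removed while nephrons and vessels of the kidney mature.

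All values are log2 ratios of kidney over reference RNA. A ratio depends on how much of the transcript the reference holds, so it can be set against the same gene at another stage but not against another gene. Every one of the 40 genes had a value on at least 1 array, and 31 were measured on all arrays. Mmp1b, Mmp15, Mmp27, Adamts2 and Adamts17 had no annotated probe in the table used here and were not analysed. Between 16194 and 17983 of the named genes were measured per array, arrays of one stage correlated with each other at a mean r of 0.90 to 0.973, and no array stood clearly apart. The 7 annotated kidney markers (Umod, Slc12a1 and others) had a median log2 ratio of 5.18 to 6.98 on every array. Kidney markers also served to settle the direction of the ratios, so their sign is no check of the tissue label. In whole tissue, fewer cells of a type and less RNA per cell cannot be told apart.

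Of the 40 genes, 10 lie on chromosome 9 in the RefSeq annotation, and the first 7 of them along the chromosome are Mmp genes: Mmp13, Mmp12, Mmp3, Mmp1a, Mmp10, Mmp20 and Mmp7. RefSeq promoter windows (build GRCm38.p6) were found for 26 of the 40 genes, and the 250 bases before the transcript start were searched on both strands for 3 short motifs. The AP-1 site TGANTCA, where N is any base, was found in 6.75% of the 32851 windows of all genes and in 7 of the 29 windows of these genes. Those 7 windows are 1 each of the 7 Mmp genes on chromosome 9. The TATA box TATAAA was found in 12.4% of all windows and in 8 of the 29, and the GC box GGGCGG in 32.7% of all windows and in 14 of the 29. The windows of Mmp13 and Mmp3, the MMP genes with a called rise over the series, and of Mmp10, a gene of the same stretch that was highest in the first postnatal week, are shown with the windows of Timp3 and Mmp14, which moved in opposite directions. Capitals mark the matches to these motifs, and the windows run 5′ to 3′ up to the base before the start.
Mmp13, chr9:7272264-7272513, plus strand: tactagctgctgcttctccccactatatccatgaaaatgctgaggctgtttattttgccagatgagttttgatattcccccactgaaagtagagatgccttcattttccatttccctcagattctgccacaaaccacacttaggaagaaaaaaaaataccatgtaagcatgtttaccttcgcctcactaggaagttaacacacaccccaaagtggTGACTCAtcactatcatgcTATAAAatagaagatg
Mmp3, chr9:7445572-7445821, plus strand: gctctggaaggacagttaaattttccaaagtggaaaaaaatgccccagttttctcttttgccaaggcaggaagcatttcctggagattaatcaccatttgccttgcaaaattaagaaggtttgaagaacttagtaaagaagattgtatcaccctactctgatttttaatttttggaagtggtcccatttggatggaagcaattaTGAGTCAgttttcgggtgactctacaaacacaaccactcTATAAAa
Mmp10, chr9:7502092-7502341, plus strand: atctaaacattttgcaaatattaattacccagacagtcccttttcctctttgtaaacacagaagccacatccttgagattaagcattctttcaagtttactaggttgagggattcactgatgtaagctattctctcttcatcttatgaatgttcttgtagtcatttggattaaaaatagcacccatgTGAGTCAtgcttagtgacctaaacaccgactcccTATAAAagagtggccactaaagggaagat
Timp3, chr10:86300162-86300411, plus strand: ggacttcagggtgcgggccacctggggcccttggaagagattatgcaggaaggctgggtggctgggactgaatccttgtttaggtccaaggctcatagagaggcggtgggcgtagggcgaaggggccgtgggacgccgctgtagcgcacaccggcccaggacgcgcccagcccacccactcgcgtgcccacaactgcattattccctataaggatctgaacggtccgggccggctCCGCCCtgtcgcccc
Mmp14, chr14:54431348-54431597, plus strand: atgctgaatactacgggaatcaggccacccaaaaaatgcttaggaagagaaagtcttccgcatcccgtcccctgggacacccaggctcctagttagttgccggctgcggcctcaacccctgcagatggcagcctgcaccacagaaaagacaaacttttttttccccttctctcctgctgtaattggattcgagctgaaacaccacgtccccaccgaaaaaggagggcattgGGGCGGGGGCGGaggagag

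In the first 3 windows an AP-1 match lies upstream of a TATA match and there is no GC box, whereas the Timp3 and Mmp14 windows hold GC boxes and neither of the other motifs; matches to different motifs do not overlap in these windows. A match describes letters in a window and is not evidence of a bound factor.

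At P35 against E19, more of the proteinase and inhibitor genes were called lower than higher, and each role group with a rise also held a fall. Of the genes tested, 3 of 5 membrane-anchored MMPs, Mmp2, Mmp11, Timp1 and 8 of 15 ADAMTS genes fell, while the collagenase Mmp13, the stromelysin Mmp3, the aggrecanase Adamts5 and the inhibitor Timp3 rose. In a limma fit over all 32 arrays, with Benjamini-Hochberg adjustment over every gene tested and a threshold of 0.05, 36 of the 40 genes could be tested between P35 and E19. Of these, 4 rose and 14 fell, that is 11.1% and 38.9%, beside 21.2% of all 17119 genes that rose and 19% that fell; 18 did not pass, and the 18 called make 50%, beside 40.2%. Their median change was -0.79 on the log2 scale, beside 0.06 for all genes. The P35 and E19 arrays did not overlap for 18 of the 36 genes, or 50%, beside 43.1% of all genes. A moderated F test for any difference among the 10 stages passed for 20 of the 35 genes it could test, or 57.1%, beside 43.6% of all 16335 genes.

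The arrays fall into 3 runs of consecutive image numbers in their descriptions, of 8, 8 and 16 arrays, and most stages are spread over several runs. With the image run as a block, 6 of the 36 genes rose and 16 fell between P35 and E19, beside 26.6% and 23% of all genes; the additions were Adamts8, Mmp19, Adamts6 and Timp2. The stage test then passed for 24 of the 35 genes, beside 58.2% of all genes. P35 and E19 share runs 2 and 3, and each of the 18 called genes kept its direction within run 2 and within run 3. For 17 of the 18 the arrays of the stages did not overlap, which fixes that direction in advance, so it is no separate check. Run 2 holds 1 array of each stage, and run 3 holds 1 E19 array and 3 P35 arrays.

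**Figure D1:**
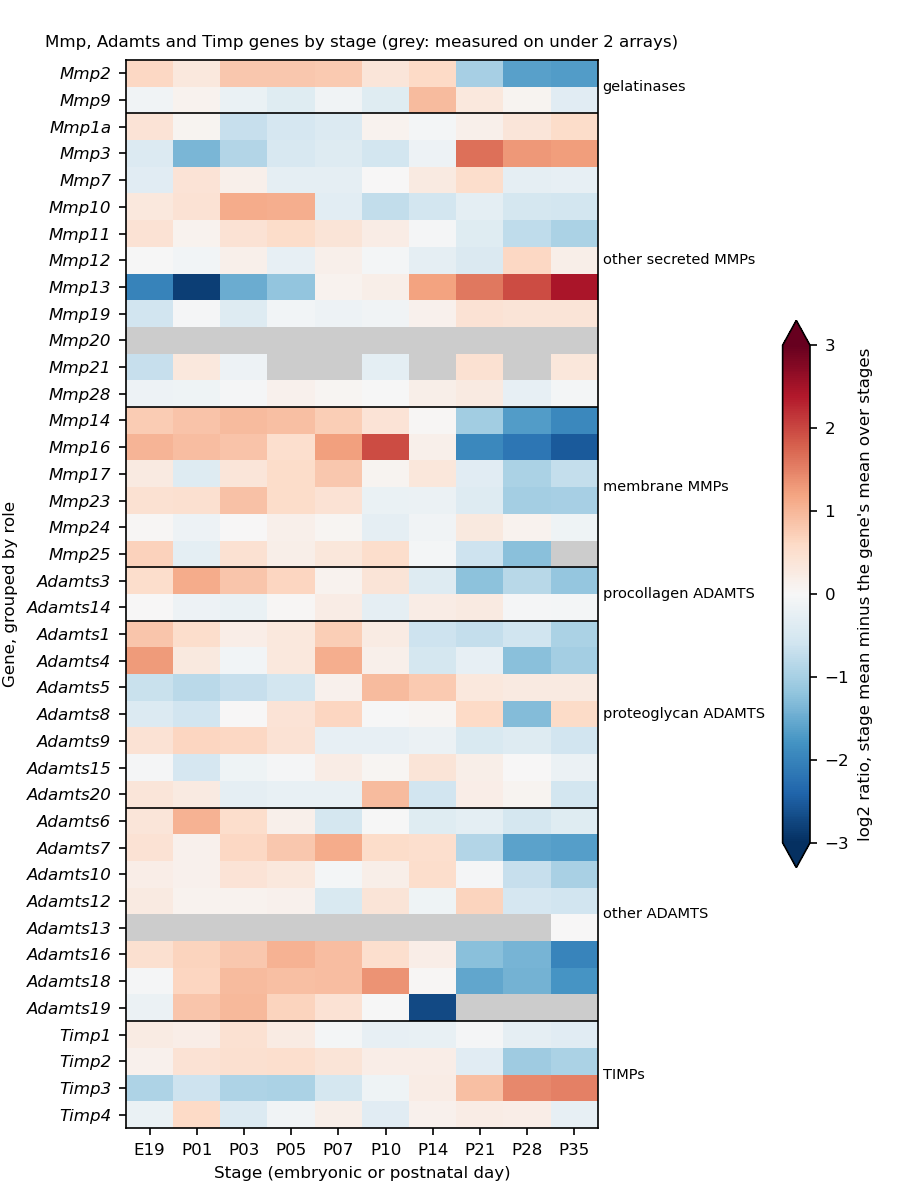
Heat map of the stage mean log2 ratio (kidney over reference) of each gene, as the difference from that gene's own mean over its stages; genes run down by role group and stages run from E19 to P35. Mmp13, Mmp3 and Timp3 turn higher towards P35, Mmp14, Mmp16, Mmp2 and Adamts7 turn lower from P21 on, and grey cells mark stages where a gene was measured on under 2 arrays.

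**Figure D2:**
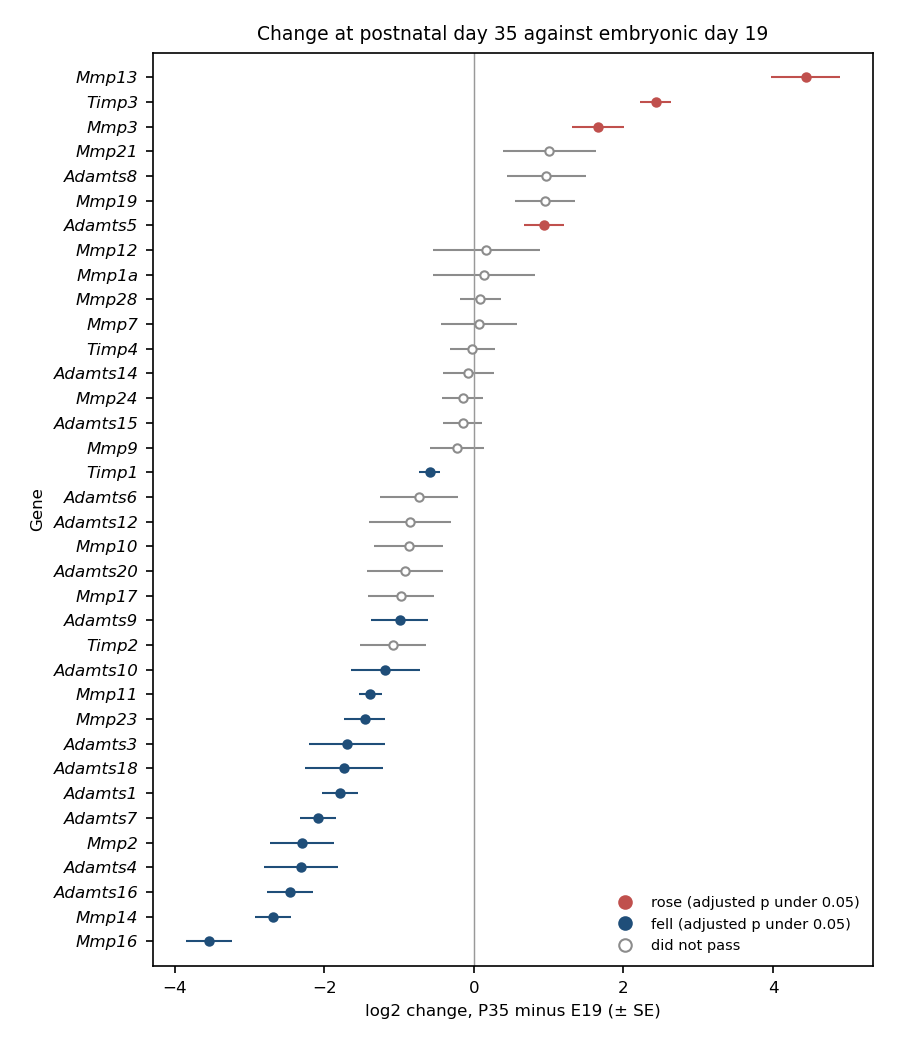
Log2 change at P35 against E19 (points) with its standard error (bars) for the 36 genes tested, ordered by size; red points rose, blue points fell and open grey points did not pass the 0.05 threshold after adjustment over all genes. Mmp13 lies at 4.44 and Timp3 at 2.43, and Mmp16 lies at -3.54 at the other end.

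Of the membrane-anchored MMPs, Mmp14, Mmp16 and Mmp23 had lower ratios late in the series. Of the 6 annotated genes, 5 could be tested between P35 and E19, 3 fell, beside 19% of all genes, none rose, and the median change was -1.46. Mmp14, the membrane type 1 enzyme that cuts collagen at the cell surface and activates pro-Mmp2, had log2 ratios of -2.09, -2.74, -2.26 and -3.01 on the P35 arrays, against 0.49, -0.10 and 0.07 on the E19 arrays. The stages did not overlap, and the change was -2.68 ± 0.24 (SE), which is 6.42-fold lower at P35 (limma, adjusted p = 1.14e-09). Both Mmp14 probes fell, by 2.67 and 2.69 on the log2 scale. Its stage means from E19 to P35, in stage order, were 0.16, 0.25, 0.35, 0.31, 0.15, -0.18, -0.56, -1.63, -2.26 and -2.53 (SD 0.06 to 0.42), close together to P07 and lowest at P35. Mmp16, the membrane type 3 enzyme, had ratios of -3.04, -2.92, -2.85 and -3.05 at P35, against 0.25, 0.95 and 0.51 at E19, a change of -3.54 ± 0.31 (SE) or 11.6-fold (limma, adjusted p = 1.13e-09). It was -1.77 (adjusted p = 2.85e-09) when exact zeros were kept and its second probe so entered the mean, and -3.54 when zeros were kept with the probe unchanged, a setting added after seeing the data. No P35 array came near an E19 array. The stage means of Mmp16 in stage order were 0.57, 0.49, 0.42, 0.05, 0.78, 1.52, -0.29, -2.38, -2.62 and -2.97 (SD 0.09 to 0.58), with the peak at P10. The ratio of Mmp23, a membrane enzyme that lacks the usual hemopexin domain, was -0.26, -0.59, -0.37 and -0.87 on the P35 arrays, against 1.32, 0.54 and 0.97 on the E19 arrays. These do not overlap either, and the change was -1.46 ± 0.27 (SE; limma, adjusted p = 0.000108); in stage order the means were 0.94, 0.97, 1.36, 1.03, 0.92, 0.29, 0.31, 0.10, -0.54 and -0.52 (SD 0.15 to 0.62). Within image runs 2 and 3 the P35 minus E19 changes were -2.17 and -2.57 for Mmp14, -3.55 and -3.90 for Mmp16, and -1.23 and -1.15 for Mmp23. Mmp17, an enzyme held in the membrane by a GPI anchor, passed the stage test (adjusted p = 0.0279) with means of 2.38, 1.73, 2.48, 2.66, 2.92, 2.19, 2.46, 1.77, 1.18 and 1.41 in stage order (SD 0.11 to 0.84), highest at P07, but its P35 and E19 arrays overlapped (-0.97, limma adjusted p = 0.0839). The 2 Mmp17 probes changed by -1.15 and -0.78, and only the second was called (limma fit of single probes, adjusted p = 0.163 and 0.0472). Mmp24 stayed between stage means of -0.37 and 0.18 and passed no test (P35 minus E19 -0.15 ± 0.28 (SE), limma adjusted p = 0.701). Mmp25, the other GPI-anchored enzyme, was measured on 1 of the 4 P35 arrays, at 0.40, and on 2 of the 3 E19 arrays, at 2.10 and 2.03, so that no P35 test was made; its P21 and P07 means were 0.76 ± 0.53 and 1.71 ± 1.01 (SD, n = 3 each), which did not differ past the threshold (limma, adjusted p = 0.162).

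Of the gelatinases, which cut denatured collagen and the type IV collagen of basement membranes, Mmp2 fell and Mmp9 did not pass. Mmp2 ratios were -1.85, -2.37, -2.32 and -2.56 at P35, against 0.76, -0.96 and 0.26 at E19. E19 array 2 was the lowest of its stage and still lay above every P35 array; the change was -2.30 ± 0.43 (SE), or 4.91-fold lower (limma, adjusted p = 0.000117). The means in stage order were 0.02, -0.28, 0.20, 0.19, 0.17, -0.24, -0.01, -1.60, -2.24 and -2.28 (SD 0.11 to 0.94), near the reference to P14 and lower from P21 on. The change of Mmp2 was -2.12 within run 2 and -1.45 within run 3. Mmp9, read by 11 probes and known from neutrophils, macrophages and osteoclasts, had a change of -0.22 ± 0.36 (SE; limma, adjusted p = 0.659). Its highest stage mean was -2.72 ± 0.82 at P14 and its lowest -4.03 at P05; the stage test gave an adjusted p of 0.0924, and 0.00309 with the image run as a block. The P14 arrays read -3.50, -2.81 and -1.86, a wide spread that lay above the P05 mean throughout.

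Of the other secreted MMPs, 11 genes with the collagenases, stromelysins and matrilysin, 10 were tested between P35 and E19. Of these, 2 rose and 1 fell, beside 21.2% and 19% of all genes, and the median change was 0.16. Mmp13, collagenase 3, which cuts fibrillar collagen, had the widest range of stage means of the 40 genes, 5.26 log2 units. Its ratios were -0.47, -0.60, -0.72 and -0.38 at P35, against -5.48, -5.27 and -4.19 at E19. The stages lay far apart, and the change of 4.44 ± 0.46 (SE) is 21.7-fold higher at P35 (limma, adjusted p = 1.68e-08). In stage order the means of Mmp13 were -4.98, -5.80, -4.48, -4.17, -2.89, -2.80, -1.78, -1.40, -1.03 and -0.54 (SD 0.15 to 1.11), lowest at P01 and higher at each later stage. The rise was 3.73 within run 2 and 4.70 within run 3. Mmp3, stromelysin 1, which cuts proteoglycans and laminin and activates other MMPs, had ratios of -5.52, -6.04, -5.82 and -5.60 at P35, against -7.70, -6.99 and -7.55 at E19. Every P35 array was above every E19 array, by a mean of 1.66 ± 0.35 (SE) or 3.17-fold (limma, adjusted p = 0.000334), although with run 3 alone the change was 1.17 and the adjusted p 0.0635. The Mmp3 means in stage order were -7.41, -8.37, -7.88, -7.49, -7.40, -7.55, -7.16, -5.36, -5.71 and -5.75 (SD 0.16 to 0.78): a low level through P14 and a higher one from P21. Mmp3 was low against the reference at every stage, and the deposited ratios do not tell how far its kidney signal stood above background.

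Mmp11, stromelysin 3, which furin activates inside the cell, fell. Its ratios were -2.11, -1.96, -1.84 and -1.87 at P35, against -0.47, -0.79 and -0.44 at E19, with no overlap and a change of -1.38 ± 0.16 (SE; limma, adjusted p = 9.26e-08). The means in stage order were -0.57, -0.88, -0.57, -0.45, -0.62, -0.78, -1.04, -1.36, -1.76 and -1.94 (SD 0.08 to 0.30), close together to P07 and then lower at each stage. Mmp10, stromelysin 2, passed the stage test (adjusted p = 0.00402) without a called change in any span; at P35 against E19 it changed by -0.87 ± 0.46 (SE; limma, adjusted p = 0.134). Its means in stage order were -1.29, -1.16, -0.48, -0.51, -1.91, -2.33, -2.14, -1.88, -2.12 and -2.16 (SD 0.27 to 1.44), with P03 and P05 on top. The P05 arrays read -0.996, 1.10 and -1.65, and the array at 1.10 lay well above the other two. The 7 Mmp genes of chromosome 9 had 6 that could be tested between P35 and E19, with 2 rises and no fall, beside 21.2% and 19% of all genes. Mmp12, the macrophage elastase, had ratios of -3.48, -3.62, -3.94 and -3.40 at P35, against -3.45, -2.55 and -5.36 at E19, where 1 array lay far below the others. The change was 0.17 ± 0.72 (SE; limma, adjusted p = 0.877). Mmp19 had a change of 0.95 ± 0.40 (SE) with an adjusted p of 0.0605, and of 1.13 with 0.0153 under the run block (limma). Mmp7, matrilysin, and Mmp1a, a rodent interstitial collagenase, were each missing on some arrays and did not pass, with changes of 0.07 ± 0.51 and 0.14 ± 0.68 (SE, limma adjusted p = 0.929 and 0.899). A second Mmp1a probe, measured on 17 arrays and not used for the gene value, changed by 1.03 (limma fit of single probes, adjusted p = 0.0401). Mmp28, epilysin, stayed between stage means of -0.70 and -0.18 and changed by 0.09 ± 0.27 (SE; limma, adjusted p = 0.823). Mmp21 was measured on too few arrays for the stage test (P35 minus E19 1.01 ± 0.62 (SE), limma adjusted p = 0.223). Mmp20, the enamel proteinase, was measured on 4 of the 32 arrays and was not tested.

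**Figure D3:**
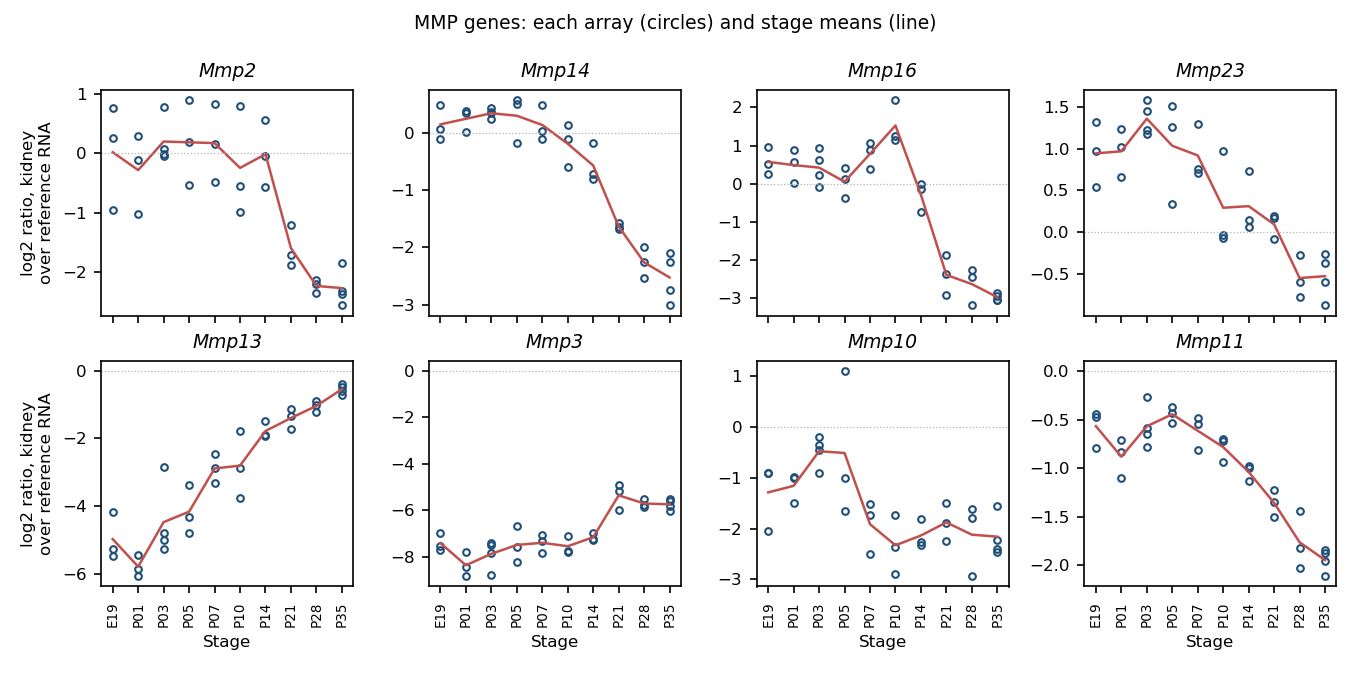
Log2 ratio (kidney over reference) of 8 Mmp genes on each array (circles), with the stage mean as a line, from E19 to P35. Mmp2, Mmp14, Mmp16, Mmp23 and Mmp11 lie lower at P35, Mmp13 climbs across the stages to a mean of -0.54, Mmp3 steps up at P21, and Mmp10 has its highest means at P03 and P05.

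Among the 7 ADAMTS genes grouped as proteoglycan-cutting (Adamts1, Adamts4, Adamts5, Adamts8, Adamts9, Adamts15 and Adamts20), 3 fell, 1 rose and 3 did not pass between P35 and E19. Of all genes, 19% fell and 21.2% rose. The median change of the 7 was -0.92. Adamts1, which cuts versican and aggrecan and is needed for normal kidney structure in mice, had ratios of -0.90, -0.91, -0.91 and -1.47 at P35, against 0.67, 0.45 and 1.11 at E19. The arrays of the stages were apart and the change was -1.79 ± 0.24 (SE), or 3.46-fold lower (limma, adjusted p = 1.22e-06). Its means in stage order were 0.74, 0.44, 0.11, 0.23, 0.64, 0.14, -0.72, -0.81, -0.70 and -1.05 (SD 0.13 to 0.59), above 0 to P10 and below it from P14. Adamts4, aggrecanase 1, had ratios of -0.97, -2.37, -2.86 and -0.55 at P35, against -0.04, 0.96 and 0.95 at E19, a change of -2.31 ± 0.50 (SE; limma, adjusted p = 0.000552). The P35 arrays of Adamts4 were widely spread, yet all lay below the E19 arrays; its means in stage order were 0.62, -0.38, -0.76, -0.36, 0.43, -0.52, -1.20, -0.91, -1.92 and -1.69 (SD 0.10 to 1.10). Adamts5, aggrecanase 2, moved the other way. Its ratios were -0.76, -0.42, -0.15 and -0.72 at P35, against -1.52, -1.19 and -1.64 at E19, without overlap, and the change was 0.94 ± 0.27 (SE), or 1.92-fold higher (limma, adjusted p = 0.00732). In stage order its means were -1.45, -1.59, -1.47, -1.33, -0.65, 0.16, 0.01, -0.47, -0.50 and -0.51 (SD 0.18 to 0.59), with the top at P10 and P14. Of its 2 probes, 1 was called, and the probes changed by 1.40 and 0.48. Adamts9 had ratios of 1.36, 1.84, 1.97 and 1.97 at P35, against 2.67, 3.39 and 2.27 at E19, a change of -0.99 ± 0.38 (SE; limma, adjusted p = 0.0375). Its 2 probes changed by -1.56 and -0.43, and the call was lost with the more variable probe alone (adjusted p = 0.708), with array weights, or without 1 of 4 arrays: E19 array 1 or 2, or P35 array 1 or 2 (changes of -1.04 to -0.68). The Adamts9 means in stage order were 2.78, 3.01, 2.98, 2.78, 2.10, 2.11, 2.18, 1.89, 1.96 and 1.78 (SD 0.26 to 0.86). Adamts8 had a change of 0.97 ± 0.53 (SE, limma adjusted p = 0.154), and of 1.23 with an adjusted p of 0.0458 under the run block. Its 2 probes changed by 1.38 and 0.56, and only the first was called (limma fit of single probes, adjusted p = 0.0375 and 0.618). Adamts15 (-0.15 ± 0.26, adjusted p = 0.686) and Adamts20 (-0.92 ± 0.51, adjusted p = 0.162) did not pass (limma, SE). Adamts20 was measured on 26 arrays. It was called lower with exact zeros kept as ratios of 0 and its other probes so averaged in (-1.59, limma adjusted p = 0.000693). The mean of all measured probes also gave a call (-1.86, limma adjusted p = 0.0206), whereas zeros kept with the probe unchanged gave none. The ratio of Adamts15 was positive throughout, with stage means from 3.54 to 4.44.

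Adamts3 and Adamts14 remove the amino-terminal propeptide of procollagens, and Adamts3 also processes the lymphatic growth factor Vegfc. Adamts3 ratios were -2.35, -1.17, -0.99 and -1.45 at P35, against -0.28, 1.08 and -0.18 at E19. The stages did not overlap, and the change was -1.69 ± 0.51 (SE; limma, adjusted p = 0.00884); without E19 array 2 it was -1.26 with an adjusted p of 0.0781. With exact zeros kept and its second probe so averaged in, it was -0.67 with an adjusted p of 0.084, whereas zeros kept with the probe unchanged left the call. Its means in stage order were 0.20, 0.80, 0.50, 0.33, -0.21, 0.07, -0.71, -1.55, -1.16 and -1.49 (SD 0.13 to 1.22), highest at P01. Adamts14 did not pass (-0.07 ± 0.34, SE; limma, adjusted p = 0.894).

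The remaining 8 ADAMTS genes had 6 that could be tested between P35 and E19, of which 4 fell, none rose and 2 did not pass. Of all genes, 19% fell and 21.2% rose. The median change of the 6 was -1.46. Adamts7, which cuts the cartilage oligomeric matrix protein Comp, had ratios of -0.40, -0.84, -0.59 and -0.33 at P35, against 1.69, 1.55 and 1.40 at E19. No array of a stage reached the other stage, and the change was -2.08 ± 0.24 (SE), or 4.24-fold lower (limma, adjusted p = 1.41e-07). The Adamts7 means in stage order were 1.54, 1.23, 1.72, 1.91, 2.22, 1.65, 1.60, 0.23, -0.50 and -0.54 (SD 0.14 to 0.49): a maximum at P07, then a drop between P14 and P21. Adamts16, whose gene has been studied for blood pressure in rats, had ratios of 2.21, 2.70, 3.30 and 1.74 at P35, against 5.34, 4.20 and 5.29 at E19. Again the stages were apart, with a change of -2.46 ± 0.31 (SE), or 5.51-fold lower (limma, adjusted p = 4.7e-07). This value comes from 1 of its 2 probes. The other probe, measured on 31 arrays, changed by -1.04 and was not called (limma fit of single probes, adjusted p = 0.188). In stage order the means of Adamts16 were 4.95, 5.14, 5.26, 5.51, 5.38, 4.97, 4.67, 3.21, 3.06 and 2.48 (SD 0.11 to 0.67), so that the kidney ratio stayed above the reference at every stage; with run 3 alone the P35 minus E19 change was -1.62 (limma, adjusted p = 0.0316). Adamts18 had ratios of -0.56, 0.23, 0.25 and -1.73 at P35, against 1.63, 0.88 and 1.33 at E19, and changed by -1.73 ± 0.52 (SE; limma, adjusted p = 0.00903). These did not overlap; with run 3 alone the change was -1.30 and the adjusted p 0.152. Its means in stage order were 1.28, 1.96, 2.26, 2.21, 2.24, 2.67, 1.35, -0.23, -0.10 and -0.45 (SD 0.17 to 1.40). The highest mean, at P10, rests on 1 array: the P10 arrays read 4.27, 2.11 and 1.64. Adamts10, which binds fibrillin microfibrils, changed by -1.18 ± 0.46 (SE; limma, adjusted p = 0.0444), with P35 ratios of -0.18, -0.01, 0.70 and -0.90 and E19 ratios of 1.78, 0.27 and 1.19. Its stages overlapped, it did not pass the stage test (adjusted p = 0.112), and the call was lost under 4 other settings and on leaving out any 1 of 7 arrays: E19 array 1 or 3, P03 array 4, P28 array 2, or P35 array 1, 2 or 4 (changes of -1.21 to -0.83). Adamts6, a microfibril-associated relative of Adamts10, changed by -0.73 ± 0.52 (SE, adjusted p = 0.283), and by -1.12 with an adjusted p of 0.0188 under the run block (limma). Adamts12 did not pass (-0.85 ± 0.55, SE; limma, adjusted p = 0.232).

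Adamts19, an ADAMTS enzyme known in mice from heart valve development, could not be tested in the spans that reach P21 or P35, nor across all stages, because it was not measured on any P21, P28 or P35 array, where the deposited ratio of its probe is exactly 0. Before that its kidney ratio was high: the arrays read 5.12, 5.35 and 5.71 at E19, 6.70, 7.27, 5.60 and 6.59 at P03 and 4.83, 5.65 and 6.18 at P10. At P14 it was measured on 2 of 3 arrays, at 2.10 and 3.64. The means from E19 to P14 in stage order were 5.39, 6.40, 6.54, 6.23, 6.01, 5.55 and 2.87. The early spans gave no call: the change was 1.01 ± 0.50 (SE) at P01 against E19 and -0.39 ± 0.49 at P07 against P01 (limma, adjusted p = 0.423 and 0.728). With exact zeros of the same probe kept as ratios of 0, the change was -5.39 ± 0.53 (SE) at P35 against E19 (limma, adjusted p = 9.15e-09) and -6.01 ± 0.56 at P21 against P07 (adjusted p = 5.27e-08). With zeros kept and all 3 of its probes averaged, these changes were -3.33 ± 0.36 and -3.76 ± 0.38 (SE; limma, adjusted p = 6.21e-08 and 3.36e-07). These values rest on what an exact 0 means, which the files do not say. Adamts13, which cuts von Willebrand factor, was measured on 4 of the 32 arrays, all from P10 on, and was not tested.

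**Figure D4:**
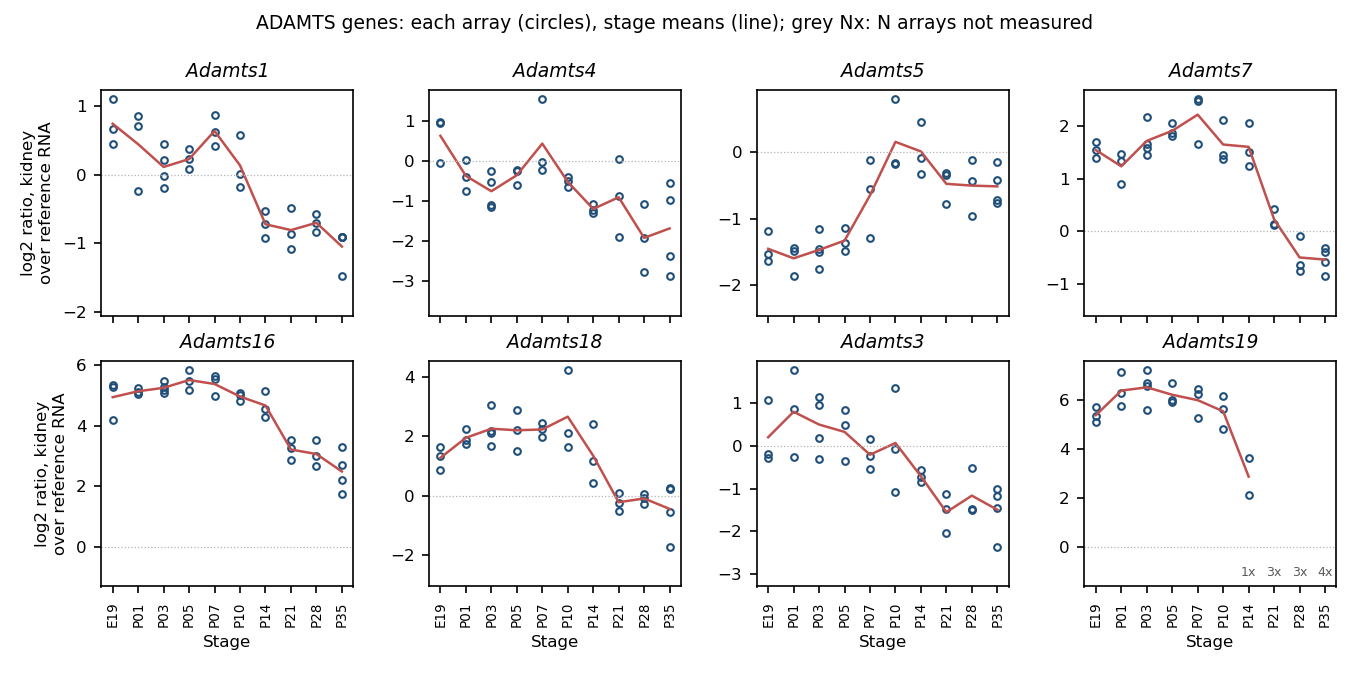
Log2 ratio (kidney over reference) of 8 Adamts genes on each array (circles), with the stage mean as a line, from E19 to P35; arrays where a gene was not measured have no circle. Adamts7, Adamts16 and Adamts18 lie lower from P21 on, Adamts1 lies lower from P14 on, Adamts5 peaks at P10, and Adamts19 has no circle after P14.

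The 4 inhibitors took different courses: 1 rose, 1 fell and 2 did not pass between P35 and E19, beside 21.2% of all genes that rose and 19% that fell. Timp3, the inhibitor that binds to the extracellular matrix and also blocks ADAMTS and ADAM enzymes, had ratios of 2.29, 3.22, 3.25 and 2.71 at P35, against 0.59, 0.26 and 0.47 at E19. All P35 arrays were above all E19 arrays, by 2.43 ± 0.21 (SE) or 5.37-fold (limma, adjusted p = 1.24e-09). Its means in stage order were 0.44, 0.73, 0.44, 0.41, 0.84, 1.22, 1.57, 2.26, 2.81 and 2.87 (SD 0.06 to 0.46), with little change to P05 and a higher mean at each stage after it. Within runs 2 and 3 the rise was 1.81 and 2.80. Timp1, an inducible inhibitor of many MMPs, had ratios of -3.80, -3.90, -3.79 and -3.79 at P35, against -3.16, -3.19 and -3.35 at E19. The stages were narrow and did not overlap, and the change was -0.59 ± 0.14 (SE), or 1.5-fold lower (limma, adjusted p = 0.00158); after quantile normalization between arrays it was -0.28 with an adjusted p of 0.272. In stage order its means were -3.23, -3.28, -3.03, -3.23, -3.55, -3.72, -3.70, -3.51, -3.75 and -3.82 (SD 0.05 to 0.27). Timp2, which together with Mmp14 activates pro-Mmp2, had ratios of -0.52, -1.04, -0.82 and -1.57 at P35, against 0.70, -0.12 and -0.30 at E19. Its arrays did not overlap, yet the change of -1.08 ± 0.44 (SE) missed the threshold (limma, adjusted p = 0.0537); under the run block it was -0.77 with an adjusted p of 0.016. Timp2 passed the stage test (adjusted p = 0.0183), with means of 0.09, 0.38, 0.43, 0.46, 0.35, 0.14, 0.16, -0.39, -1.11 and -0.99 in stage order (SD 0.33 to 0.85). Timp4 had a change of -0.02 ± 0.30 (SE; limma, adjusted p = 0.965) and stage means between -1.01 and -0.01. In the RefSeq annotation Timp1, Timp3 and Timp4 each lie inside a synapsin gene (Syn1 for Timp1, Syn3 for Timp3, Syn2 for Timp4), whereas Timp2 does not.

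**Figure D5:**
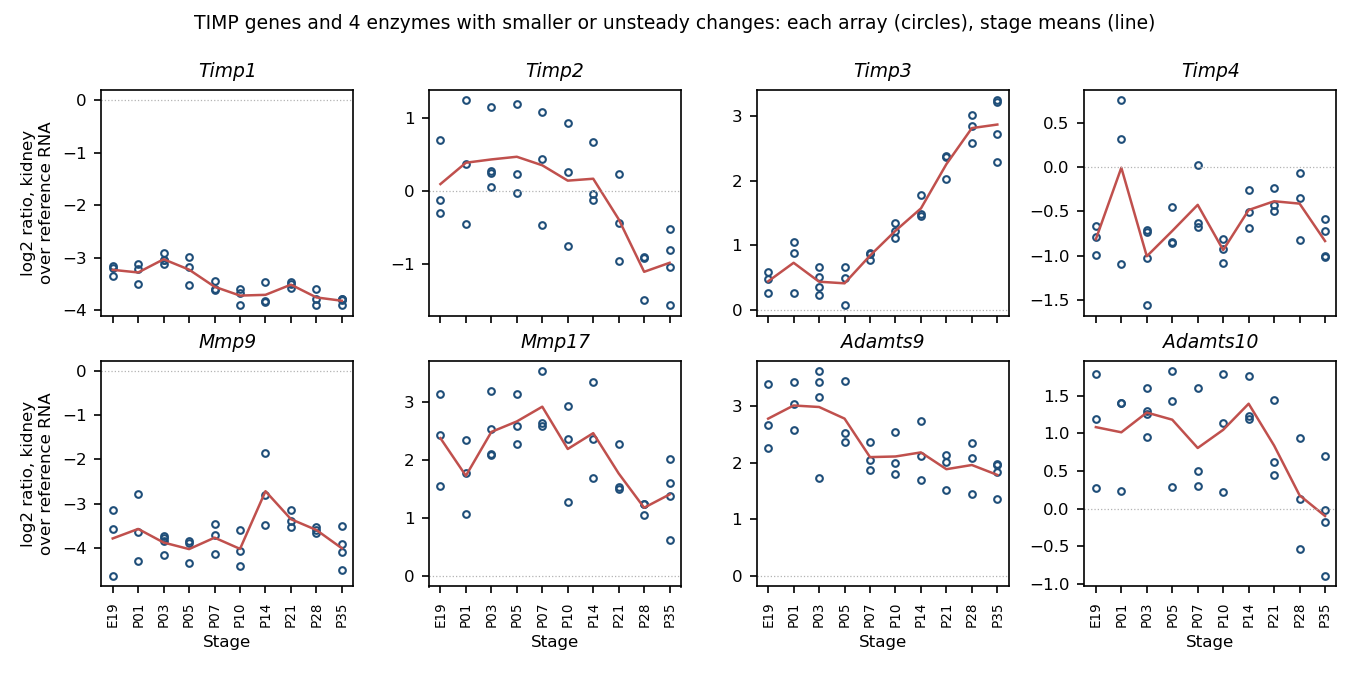
Log2 ratio (kidney over reference) of the 4 Timp genes and of Mmp9, Mmp17, Adamts9 and Adamts10 on each array (circles), with the stage mean as a line, from E19 to P35. Timp3 climbs to a mean of 2.87 at P35, Timp2 lies lower from P21 on, and Timp1 moves within less than 1 log2 unit.

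The shorter spans that tile the series place these changes in time. Across birth, P01 against E19, none of the 38 genes tested passed in limma, beside 1.45% of all genes; at an unadjusted p under 0.05, 1 gene was higher and 1 lower, Timp4 and Mmp3. In the first week, P07 against P01, 3 of 37 genes rose and none fell, or 8.11%, beside 4.83% of all genes that rose and 2.56% that fell. At an unadjusted p under 0.05, 7 were higher and 2 lower. The shares of all genes given here are at the adjusted threshold. At the unadjusted threshold all genes were not counted, so the unadjusted counts of both spans have no background. Mmp13 ratios were -2.88, -2.46 and -3.33 at P07, against -5.44, -5.87 and -6.08 at P01, a rise of 2.91 ± 0.49 (SE) or 7.5-fold (limma, adjusted p = 0.000465). Adamts7 rose by 0.98 ± 0.26 (adjusted p = 0.0199) and Adamts5 by 0.95 ± 0.29 (adjusted p = 0.0474) (SE, limma). The Adamts7 call was lost without P01 array 3, P07 array 2 or P07 array 3, at changes of 0.82 to 0.85. The Adamts5 call, close to the threshold, was lost without any 1 of 20 arrays, at changes of 0.68 to 1.02: E19 arrays 1 and 3, all 3 P01 arrays, P03 arrays 1, 3 and 4, all 3 P05 arrays, P07 arrays 1 and 3, P14 array 2, P21 arrays 1 and 2, P28 array 3, and P35 arrays 1, 2 and 4. P07 and P01 share run 1 alone, with 1 array of each stage, where each of the 3 genes was higher at P07. The arrays of these stages did not overlap for any of the 3 genes, so that direction was fixed in advance and is no separate check. Under the run block 5 genes rose and 1 fell, beside 6.7% and 3.84% of all genes: Adamts15 and Mmp17 were also called higher, by 0.70 and 0.90, and Adamts6 lower, by -1.45 (limma, adjusted p = 0.0215, 0.0399 and 0.0329).

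Among the shorter spans, falls were called in P21 against P07. Of 36 genes tested in P21 against P07, 8 fell and 3 rose, or 22.2% and 8.33%, beside 9.08% of all genes that fell and 6.25% that rose. Mmp16 ratios were -1.88, -2.91 and -2.37 at P21, against 1.07, 0.88 and 0.39 at P07, a change of -3.17 ± 0.33 (SE; limma, adjusted p = 2.86e-07). Mmp14 ratios were -1.65, -1.68 and -1.57 at P21, against -0.10, 0.05 and 0.49 at P07, a change of -1.78 ± 0.25 (SE; limma, adjusted p = 1.9e-05). Neither gene overlapped between these stages. The other falls were Adamts18 (-2.47), Adamts16 (-2.17), Adamts7 (-1.99), Mmp2 (-1.77), Adamts1 (-1.45) and Mmp11 (-0.74), with limma adjusted p-values from 6.75e-06 to 0.00911; the Mmp2 call was lost without P07 array 3 (-1.44, adjusted p = 0.055). With zeros kept and second probes averaged in, the Adamts18 call was lost (-1.24, adjusted p = 0.13), Mmp16 changed by -1.58 and Adamts16 by -1.44. The second Adamts16 probe on its own changed by -0.71 (limma fit of single probes, adjusted p = 0.566). The Mmp14 call was lost with its more variable probe alone (-1.53, adjusted p = 0.0666), and the Mmp11 call in a fit of these 2 stages alone (adjusted p = 0.0642). The rises were Mmp3 (2.04 ± 0.37, adjusted p = 0.000329), Timp3 (1.42 ± 0.23, adjusted p = 9.41e-05) and Mmp13 (1.49 ± 0.49, adjusted p = 0.0375) (SE, limma). The Mmp13 call was lost without P07 array 1 or 3, or without P21 array 1 or 2, at changes of 1.28 to 1.50. With the run block 13 genes fell, beside 11.2% of all genes: Adamts3, Mmp23, Adamts9, Mmp17 and Timp2 were added. Again 3 rose, beside 8.96%; the added changes were -1.87, -0.91, -0.73, -0.86 and -0.85. P07 and P21 share run 1 alone, with 1 array of each stage, where each of the 11 called genes had the same direction. For all 11 the arrays of the stages did not overlap, which fixes that direction in advance, so it is no separate check. In the last span, P35 against P21, none of 36 genes passed in limma, beside 0.882% of all genes. At an unadjusted p under 0.05, 1 was higher and 7 were lower, but all genes were not counted at that threshold, so these counts have no background. Under the run block Mmp11 (-0.52, adjusted p = 0.0468) and Mmp14 (-0.77, adjusted p = 0.0444) fell in that span, beside 1.2% of all genes that fell (limma). The spans share arrays at their common stages and with the P35 against E19 comparison, so they are not independent of one another.

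Genes that regulate these enzymes were called in both directions at shares near those of all genes. Of 28 tested regulators (activators, other inhibitors, related proteinases and receptors) 5 rose and 5 fell between P35 and E19, beside 21.2% and 19% of all genes, with a median change of -0.47; with the run block 8 rose and 7 fell, beside 26.6% and 23%. Adamtsl2, an ADAMTS-like protein of microfibrils without catalytic activity, rose by 3.49 ± 0.46 (adjusted p = 8.96e-07), Pcolce2, an enhancer of procollagen C-proteinase, by 2.06 ± 0.29 (adjusted p = 2.67e-06), and Plau, the urokinase that generates plasmin, by 1.74 ± 0.35 (adjusted p = 0.000262) (SE, limma). Fap, a serine proteinase of fibroblasts, changed by -3.46 ± 0.30 (adjusted p = 1.13e-09), Papln, a papilin with ADAMTS-like domains, by -2.42 ± 0.44 (adjusted p = 7.18e-05), and Bmp1, the procollagen C-proteinase, by -1.94 ± 0.31 (adjusted p = 1.63e-05) (SE, limma). Substrates moved mostly one way: of 25 tested, 19 fell and 1 rose, with a median change of -1.29, beside 19% of all genes that fell. Fbn2, fetal fibrillin, had a mean ratio of -0.45 ± 1.10 at P35 and 4.68 ± 0.34 at E19 (SD, n = 4 and 3), a change of -5.13 ± 0.48 (SE; limma, adjusted p = 4e-09). Versican, Vcan, which Adamts1, Adamts4, Adamts5 and Adamts9 can cut, averaged -3.61 ± 0.63 at P35 and 0.39 ± 0.48 at E19 (SD, n = 4 and 3), a change of -3.99 ± 0.29 (SE; limma, adjusted p = 6.56e-11). Fbln1, fibulin 1, a cofactor of Adamts1, changed by -3.06 ± 0.41 (SE; limma, adjusted p = 9.89e-07). The substrate that rose was Comp, which Adamts7 and Adamts12 cut, at 0.56 ± 1.26 at P35 and -1.63 ± 0.31 at E19 (SD, n = 4 and 3), a change of 2.19 ± 0.43 (SE; limma, adjusted p = 0.00019). In P21 against P07, 10 of 25 substrates fell and none rose, and 3 of 26 regulators fell and 3 rose, beside 9.08% of all genes that fell and 6.25% that rose.

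Markers of other cell types moved over the same stages. Of all genes, 21.2% rose and 19% fell between P35 and E19, and 4.83% rose in P07 against P01. In P21 against P07, 6.25% of all genes rose and 9.08% fell. Of 8 stromal markers (Pdgfra, Pdgfrb, Col1a1, Col3a1, Dcn, Lum, Acta2 and Cspg4), 7 fell between P35 and E19 and none rose; 3 of the 8, Col1a1, Col3a1 and Dcn, are also among the substrates. The median ratio of these 8 lay between -1.39 and -0.98 on the P35 arrays, against 0.20 to 0.51 on the E19 arrays, and 6 of the 8 fell in P21 against P07. All 8 were measured on every array. Of 7 tested leukocyte markers 3 fell, with list medians of -1.28 to -0.82 at P35, against 0.05 to 0.74 at E19; Elane was at exactly 0 on 23 of the 32 arrays and Ngp on 11. Cartilage and bone markers had 4 of 8 fall, with list medians of -1.17 to -0.78 at P35, against -0.45 to 0.19 at E19; Ibsp was at 0 on 7 arrays. Muscle markers also had 4 of 8 fall, with list medians of -3.45 to -2.41 at P35, against -1.39 to -0.29 at E19. Of 5 tested adipose markers 4 rose and 1 fell, with list medians of 2.31 to 5.57 at P35, against 0.01 to 0.37 at E19, and 3 of 5 rose in P07 against P01; Lep was at 0 on 17 arrays. Adrenal markers had 2 of 5 rise and 1 fall, with list medians of -0.23 to 0.32 at P35, against -0.55 to 1.39 at E19; Cyp11b2 was at 0 on 23 arrays and Cyp11a1 on 13. In P21 against P07, where 8 of the proteinase genes fell, 3 of 7 leukocyte, 2 of 8 cartilage and bone, and 1 of 8 muscle markers fell; 1 cartilage and bone marker and 1 of 6 adrenal markers rose, and none of 6 adipose markers passed the test. The part of these lists in the results was not tested.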

How the data were processed

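Two-colour arrays of kidney RNA (Cy5) and reference RNA (Cy3) were read from the deposited table of the authors' processed values, 45220 probes by 32 arrays. The deposited values are log10 ratios of kidney over reference; scale and direction are not stated and were settled from the values (range -3.25 to 4) and from markers of kidney. The background correction, normalization and array software have no record in the labels or file headers, and the table holds no intensities, so the depth of signal over background is unknown. The number of arrays per stage limits the precision. Ratios were multiplied by 3.32 to give log2 ratios. An exact 0 (10.79% to 22.96% of the values of an array) was taken as not measured. A gene's value was the mean of its probes measured on all 32 arrays, or else its most often measured probe; 33653 probes carry 1 symbol. Probe names came from the platform's annotation table.

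Genes were chosen by symbol (Mmp or Adamts followed by a number, and Timp1 to Timp4), and 1 Mmp gene is not reported here. The members and lists were chosen with earlier results of these data known. Stage comparisons used limma 3.58.1 in R 4.3.3 (lmFit, eBayes, moderated F) over all 10 stages, for genes measured on at least 2 arrays of each stage compared, with Benjamini-Hochberg adjustment over all genes and a threshold of 0.05; the fit was tested on simulated data. Stage means were given in full for genes past the F test and values per array for the genes with the largest called changes of each role group; of the pathway lists, up to 3 called rises and 3 called falls were named. The alternatives were the image run as a block or run 3 alone, zeros kept (with the probe rule reapplied or, chosen after seeing the data, the probes unchanged), quantile or median normalization, other probe rules, a stricter filter, array weights, only the 2 stages compared, and each array left out. Promoter windows and gene order came from RefSeq.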

Additional observations from a re-analysis of the deposited data

Results flagged for a closer look

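In each gene and stage with 4 measured arrays, 69 groups in all, the highest and lowest array were set against the other 3 by Dixon's ratio, and 6 groups had an array beyond the 95% critical value; chance marks about 1 group in 20. Adamts1 read -1.47 on P35 array 4, with the other P35 arrays between -0.91 and -0.90. Timp1 read -3.90 on P35 array 2, with the others between -3.80 and -3.79, a gap that is small in itself. Adamts14 read 0.10 on P03 array 2, above the others at -0.76 to -0.67. Adamts8 read 3.05 on P03 array 3, below the others at 4.38 to 4.45. Mmp19 read -4.43 on P03 array 1, below the others at -3.33 to -3.21. Mmp2 read 0.78 on P03 array 2, above the others at -0.04 to 0.07.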

How the results depend on the processing

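No direction of a called change reversed under any alternative tried. For single genes and comparisons, 1857 results kept their side of the threshold under settings other than leaving out an array, 43 gained a call and 17 lost one; on leaving out each of the 32 arrays, 5766 kept it, 28 gained and 40 lost one. Zeros kept with each gene's probes unchanged, chosen after seeing the data, changed no call of these single genes. No paired analysis was possible because the array labels carry no replicate numbers. The P35 minus E19 counts stayed within 1.5 times of 6883 genes, 4 rises and 14 falls of the Mmp, Adamts and Timp genes under all settings; leaving out 1 array gave 5917 to 6966 genes, 4 to 5 rises and 12 to 16 falls. For P01 minus E19 (246 genes), the image run as a block gave 681 genes, run 3 alone 81, array weights 2847 with 5 falls (Adamts1, Adamts15, Adamts4, Mmp13 and Mmp3), and the 2 stages alone 0; leaving out 1 array gave 53 to 259 genes (53 without P01 array 3), 0 to 1 rises and 0 falls. For P07 minus P01 (1237 genes, 3 rises), the block gave 5 rises and 1 fall, array weights 2014 genes, and the 2 stages alone 142 genes and 1 rise; leaving out 1 array gave 732 to 1302 genes (732 without P07 array 2), 1 to 3 rises (1 without P01 array 3) and 0 to 1 falls. For P21 minus P07 (2587 genes, 8 falls), the block gave 13 falls and the 2 stages alone 1634 genes; leaving out 1 array gave 1771 to 2652 genes, 2 to 3 rises and 7 to 9 falls. For P35 minus P21 (152 genes), the block gave 380 genes and 2 falls, run 3 alone 31 genes, zeros kept 1 fall, array weights 1184 genes with 1 rise and 4 falls, and the 2 stages alone 4 genes; leaving out 1 array gave 47 to 237 genes (47 without P21 array 3, 237 without P35 array 1), 0 to 1 rises and 0 to 1 falls. The stage test passed 7126 genes, 13114 with array weights, and 6740 to 7492 genes and 19 to 21 of the Mmp, Adamts and Timp genes on leaving out 1 array. The cause of these differences between settings was not tested. Fewer arrays enter when only 1 run or 2 stages are used. P07 has no array in run 3, so its comparisons have no value there. No signal over background could be read from ratios, which limits what can be said of genes far below the reference, such as Mmp3.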
